A study of Rattus norvegicus with 53 samples.

Results

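L6 myotubes, which form when cells of this rat skeletal muscle line fuse in culture, were compared with and without insulin at hours 3 and 4 of an 8-hour course. The comparison used the arrays labelled with these hours, chosen by their titles. It held 11 of the 53 arrays of the series, 5 from insulin-treated cultures and 6 from control cultures. All of them came from the same unmodified cell line, differentiated and then kept without serum. Treated plates received 20 nM insulin, and control plates received the same medium with 0 nM insulin. An hour 3 array measured pooled RNA of 3 collections at 140, 160 and 180 min, and an hour 4 array those at 200, 220 and 240 min. The course was run on 3 different days, called here repeats a, b and c. Each time had plates of its own, so that a culture is a set of separate plates of 1 cell line. The treated array of hour 3 in repeat a is not among the arrays analysed, which leaves 5 treated and control pairs of the same hour and repeat. Both cultures were also measured at time 0, before insulin was added.

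Insulin binds a receptor tyrosine kinase whose substrates recruit PI3-kinase, and the kinase Akt then acts on glucose transport, protein synthesis and transcription. Akt keeps FOXO factors out of the nucleus, so that genes which FOXO factors turn on in fasted muscle, for atrophy, autophagy and the saving of glucose, are expressed less. Insulin also favours the processing of SREBP factors, which turn on lipid synthesis, and raises translation through mTORC1, to which ATF4 and its amino acid genes respond.

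Levels are given as deposited, on the log2 scale after RMA normalisation, and each gene is represented by its brightest probe set. A difference is treated minus control on this log2 scale, so that a value of 1 is a doubling. Fitted values are the mean of the hour 3 and hour 4 differences, with their standard error (SE), and p-values come from a two-sided limma test with each pair as a block, adjusted by Benjamini-Hochberg over all probe sets tested. A gene is said to have risen or fallen where the adjusted p was under 0.05.

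All 22 myotube markers on the array reached a mean level of 5. They ran from Mb (5.27) and Myh8 (5.32), close to it, to Myl4 (13.9). Averaged over the 22 myotube markers on the array, the levels ran from 9.62 to 10.66 in treated and from 9.57 to 10.75 in control arrays, and 0 of the 22 markers passed the test. Of 7 markers of myoblasts, the muscle precursor cells, on the array, Myod1 lay under a mean level of 5. The 6 at or above it were Cdh15 (mean level 10.1), Vcam1 (9.84), Id2 (9.32), Id3 (9.03), Id1 (7.94) and Spry1 (7.92). Of 10 macrophage, 10 endothelial and 10 adipocyte markers, Ptprc, Adgre1, Cd163, Tyrobp, Pecam1, Tek, Tie1, Kdr, Vwf, Emcn, Adipoq, Lep, Plin1, Fabp4, Cidec and Pparg lay under a mean level of 5, the floor of the test. Of those on the array, 6 of 10 macrophage, 3 of 9 endothelial and 3 of 9 adipocyte markers lay at or above it, among them Cd14 (mean level 7.70), Lyz2 (6.58), Aif1 (6.37), Esam (6.77), Lipe (7.84) and Cebpa (7.15), and 0 of these 12 passed. The markers of proliferating cells averaged 8.77 to 9.54 in treated and 8.66 to 9.56 in control arrays, and 0 of 14 passed. Fibroblast markers averaged 9.40 to 9.72 against 9.54 to 9.84, and myoblast markers 7.97 to 8.35 against 7.89 to 8.40, with 0 of 10 and 0 of 6 that passed. Before insulin was given, the cultures of repeat b differed no more than those of repeat a. The standard deviation of the time 0 difference over probe sets was 0.27 in repeat b, 0.28 in repeat a and 0.22 in repeat c. Repeat b stood apart in that its difference at time 0 was found again later. Across 22143 probe sets, its time 0 difference correlated with its difference at hours 3 and 4 at 0.68. In repeats a and c this correlation was 0.036 and -0.050 (a description over probe sets of shared arrays). For this reason results are also shown with repeat b left out at hours 0 to 5. A p-value here measures the spread between pairs of 1 cell line, and the pairs of different hours in 1 repeat count as independent, although the hour 3 and hour 4 differences of repeat b correlated at 0.76. With 1 value per repeat, 37 genes passed, all of them among those called with every pair.

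Levels differed between treated and control arrays for 520 of the 11631 genes tested (4.47%). Of these, 242 rose (2.08% of the genes tested) and 278 fell (2.39%), and 483 had the same sign in all 5 pairs. Counted as probe sets, 397 rose (1.79%) and 443 fell (2%), 3.79% together. In RNA of whole plates, fewer cells that express a gene and less RNA of it per cell cannot be told apart. The differences were mostly small. The median rise was 0.35 and the median fall was -0.35. There were 29 rises over 0.5 and 61 falls past -0.5, and Pnrc1, Pdk4 and Ccng2 were the 3 genes that fell by more than 1, against 0 that rose by more than 1. The levels of treated and control arrays did not overlap for 112 of the 520 called genes and for 235 of the 11631 genes tested (2.02%). The called genes were chosen by their difference on these same arrays, so a larger share among them follows from that choice. With repeat b left out at hours 0 to 5, 37 genes passed (0.318%), of which 36 also passed with all arrays. These 36 held 26 falls and 10 rises. The 10 that rose were Fasn, Insig1, Sqle, Idi1, Slc25a33, Zbtb11, LOC100912041, Atf3, Ccn1 and Tnfaip3. With the time 0 difference subtracted (values relative to time 0), 8 genes passed. On that basis 405 of the 520 called genes had a smaller difference.

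Short stretches of promoter are shown for 5 genes described next, because their letters hold a short motif known for a factor of these pathways. The motif of FOXO factors was searched as GTAAACA, and the amino acid response motif bound by ATF4 as TGATGNAA, on both strands, in the 300 bases from 250 before to 50 after the start of each gene (RefSeq, rat build GRCr8). The FOXO motif was present in 3.78% and the ATF4 motif in 3.98% of the 33469 promoters of that table. Among the 12 genes with the largest falls, 10 had a promoter in the table and 4 of these held the FOXO motif: Bcl2l11, Hbp1, Tmem140 and Ypel3. Among the 14 genes of the FOXO list that fell, 10 had a promoter and 2 held it, Bcl2l11 and Pik3ip1. Among the 12 with the largest rises, 9 had a promoter there, Vof16 held the FOXO motif, and Chac1 and Trib3 held the ATF4 motif. The sterol element, searched as TCACNCCAC and found in 1.12% of all promoters, was in 0 of the 7 promoters found for the sterol genes that rose. The genes were chosen by their values, and a match is a run of letters and not a site shown to be bound. The capitals mark the motif, all stretches lie before the start of the gene and are written on its strand, and they cover chr3:135819808-135819874 (Bcl2l11, plus strand), chr6:54283390-54283456 (Hbp1, minus strand), chr4:64503435-64503501 (Tmem140, plus strand), chr3:126795934-126796001 (Chac1, plus strand) and chr3:161275534-161275584 (Trib3, minus strand).
Bcl2l11: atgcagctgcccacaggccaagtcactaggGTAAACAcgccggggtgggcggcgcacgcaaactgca
Hbp1: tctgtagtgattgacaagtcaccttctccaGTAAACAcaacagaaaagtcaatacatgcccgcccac
Tmem140: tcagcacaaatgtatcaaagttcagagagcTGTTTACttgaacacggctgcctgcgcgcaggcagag
Chac1: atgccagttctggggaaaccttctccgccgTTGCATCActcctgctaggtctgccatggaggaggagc
Trib3: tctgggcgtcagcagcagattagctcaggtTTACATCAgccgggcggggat
The motif began 204 bases before the start of Bcl2l11, 167 before that of Hbp1, 156 before that of Tmem140, 167 before that of Chac1 and 21 before that of Trib3, and the last 3 hold it as the reverse complement.

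FOXO factors and genes known as their targets were the list with the most members that fell. Of 28 measured, 14 fell and 0 rose (50% called, against 4.47% of all genes). The median of the list was -0.30, against -0.0036 over all genes tested. The 14 were Foxo3, Foxo4, Pdk4, Irs2, Ccng2, Cdkn1b, Bcl2l11, Pnrc1, Klhl24, Gabarapl1, Sesn1, Txnip, Btg1 and Pik3ip1. With that repeat left out, 8 fell and the median was also -0.30. In what follows, treated levels are given in the order of hour 3 in repeats b and c and then hour 4 in repeats a, b and c.

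Pnrc1, a nuclear receptor coactivator, had the largest fall. Its treated levels were 8.77, 7.54, 9.01, 8.37 and 7.76, against 9.26 to 10.55 (median 9.92) in the 6 control arrays. Every treated array lay under every control array. The fitted difference was -1.69 (SE 0.155, adjusted p = 2.12e-06, limma), which is 3.22-fold lower, and the pairs ran from -2.18 to -0.92. Without repeat b it was -1.54.

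Pdk4, a kinase that turns off pyruvate dehydrogenase and so spares glucose, stood at 5.20, 5.84, 5.43, 5.36 and 5.88 in treated arrays and at 6.19 to 7.36 (median 6.25) in control arrays. The groups did not overlap, although the control levels of repeat c lay over those of the other 2 repeats. Pdk4 was 2.10-fold lower (difference -1.07, SE 0.144, adjusted p = 0.000132). The treated levels lay close to 5, the floor set for mean levels. Another probe set of Pdk4, at a mean level of 5.46, gave -0.05 (adjusted p = 0.749). Its relative Pdk2 also fell, by 0.72 (adjusted p = 0.0301), but Pdk2 differed by -0.79 at time 0 in repeat b and did not pass without that repeat (difference -0.42, adjusted p = 0.821).

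Ccng2 encodes cyclin G2, which is found in cells that stop dividing. Its treated levels of 8.13, 8.76, 8.60, 8.02 and 8.76 lay under the control levels of 9.31 to 9.93 (median 9.46). The groups were apart in every pair, and the difference was -1.04 (SE 0.146, adjusted p = 0.000208), or 2.06-fold. Cdkn1b, the Cdk inhibitor p27, fell by 0.41 (adjusted p = 0.00952).

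Bcl2l11, which encodes the pro-apoptotic protein Bim, measured 8.52, 8.68, 8.85, 8.27 and 8.56 in treated arrays and 9.01 to 10.17 (median 9.68) in control arrays. It did not overlap between the groups and was 1.84-fold lower (difference -0.88, SE 0.134, adjusted p = 0.000452). A second probe set of Bcl2l11 at a mean level of 6.00 gave -0.01 (adjusted p = 0.948). The median of the Bcl-2 family as a whole was -0.07. It had 4 falls and 0 rises among 14 measured genes (28.6% called, against 4.47% of all genes). Beside Bcl2l11 these were Bnip3l, a mitophagy receptor, at -0.44, and Bmf and Bbc3, which are pro-apoptotic too, at -0.38 and -0.29. Bbc3 differed by -0.30, -0.39 and -0.04 at time 0, and by -0.05 relative to time 0. Bcl2l11 and Bnip3l were the 2 that also fell without repeat b.

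Klhl24, an adaptor of ubiquitin ligases, had levels of 6.92, 6.41, 6.77, 6.63 and 6.18 in treated and 6.94 to 7.64 (median 7.55) in control arrays. The highest treated array came close to the lowest control array without reaching it. The difference was -0.79 (SE 0.162, adjusted p = 0.00773), and both other probe sets of Klhl24 fell. Pik3ip1, a membrane protein that restrains PI3-kinase, measured 7.26, 7.42, 7.55, 7.35 and 7.39 in treated arrays and 8.02 to 8.55 in control arrays. Its difference was -0.74 (SE 0.0919, adjusted p = 5.62e-05), while a dim probe set of the same gene gave 0.09 (adjusted p = 0.574).

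Foxo3 itself fell by 0.51 (SE 0.0651, adjusted p = 7.87e-05), with pairs between -0.56 and -0.44. Foxo1 did not pass, with a difference of -0.04 (SE 0.074, adjusted p = 0.781). Irs2, an insulin receptor substrate whose transcription FOXO factors promote, measured 6.90, 7.01, 6.99, 6.99 and 7.43 in treated arrays and 7.23 to 7.75 in control arrays. It fell by 0.47 (adjusted p = 0.00205), but the groups overlapped and it did not pass without repeat b (difference -0.30, adjusted p = 0.543). Txnip, an inhibitor of glucose uptake, fell by 0.67 (adjusted p = 0.00175), and it did not pass without repeat b either (difference -0.63, adjusted p = 0.194). Trim63, the muscle ubiquitin ligase MuRF1, was lower in 5 of 5 pairs by -0.47 to -0.16 without passing the test (difference -0.35, SE 0.108, adjusted p = 0.0712). Fbxo32, the other well-known ligase of muscle atrophy, had a mean level under the floor of 5 and was not tested.

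**Figure D1:**
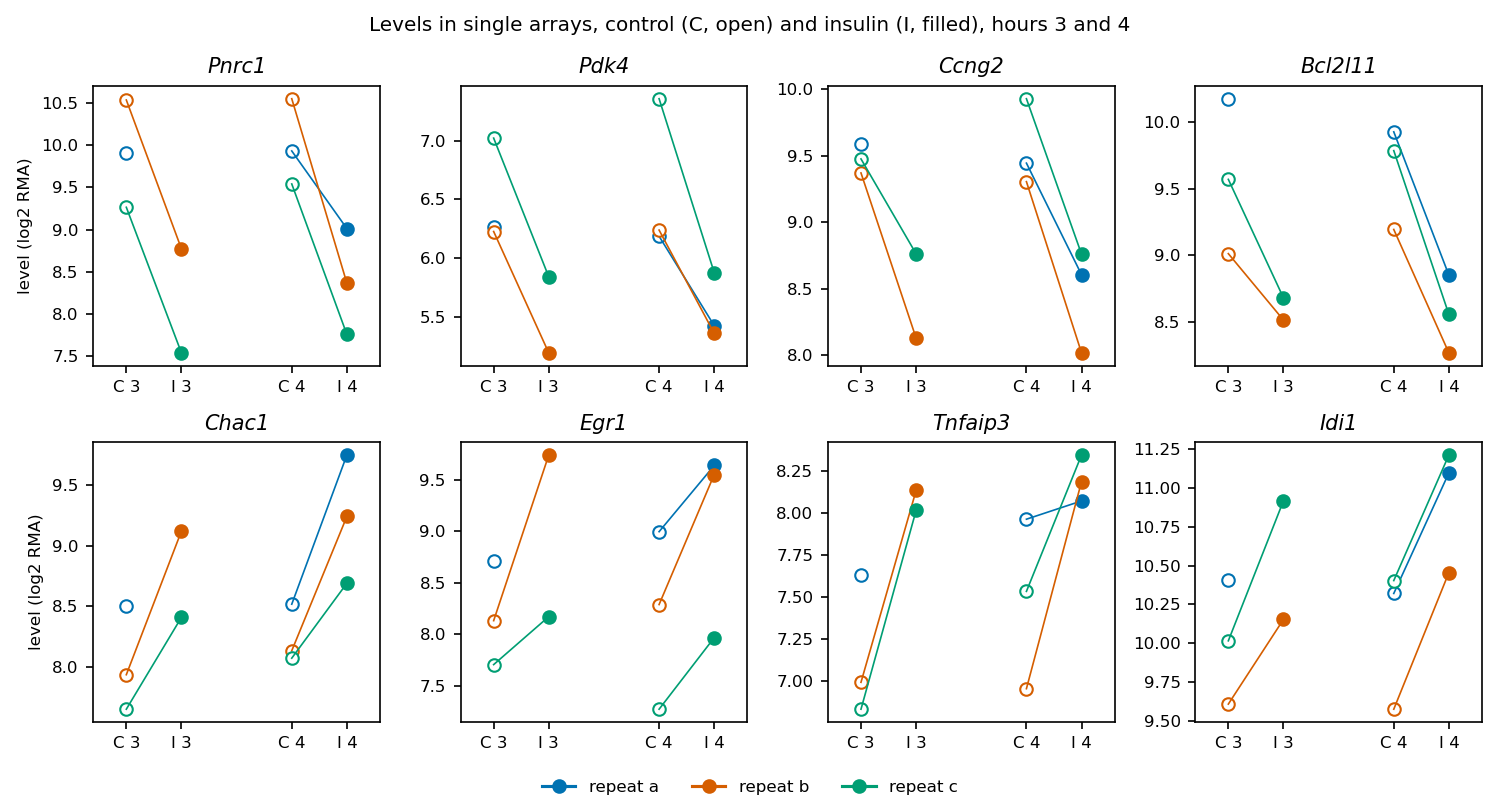
Levels (log2 RMA, vertical axis) of 4 genes that fell and 4 that rose in each control array (C, open) and insulin-treated array (I, filled) at hours 3 and 4, with lines joining the pairs of 1 repeat; the axes differ between panels and do not start at 0. Pnrc1, Pdk4, Ccng2 and Bcl2l11 lay lower in all 5 treated arrays than in all 6 control arrays, while the groups overlapped for Chac1, Egr1 and Idi1 although all 5 pairs rose.

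Other large falls lay outside the FOXO list and the Bcl-2 family. Vsir, an immune checkpoint receptor, measured 6.94, 6.68, 6.82, 6.81 and 6.57 in treated arrays and 7.32 to 7.93 (median 7.57) in control arrays. Crebrf, a regulator of the factor Creb3, measured 6.68, 6.43, 6.60, 6.66 and 6.24 against 7.19 to 7.65 (median 7.42). Hbp1, a repressor of cell cycle genes, measured 8.67, 8.26, 8.47, 8.43 and 8.24 against 9.11 to 9.41 (median 9.34). None of these 3 genes overlapped between the groups, and their pairs were close to each other. Vsir was 1.84-fold lower (difference -0.88, SE 0.0896, adjusted p = 3.85e-06). Crebrf was 1.83-fold lower (difference -0.87, SE 0.0771, adjusted p = 1.88e-06), and its second probe set fell by 0.88. Hbp1 was 1.81-fold lower (difference -0.85, SE 0.0883, adjusted p = 4.31e-06).

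Tmem140, a little-studied membrane protein, fell by 0.99 (SE 0.128, adjusted p = 9.18e-05), and Ndrg1, a stress-induced gene, by 0.85 (SE 0.08, adjusted p = 2.4e-06). In both genes the levels of treated and control arrays overlapped, while 5 of 5 pairs fell. For Tmem140 the treated levels were 5.96, 5.47, 6.25, 5.68 and 5.39 and the control levels 6.06 to 7.21, and for Ndrg1 they were 9.17, 9.09, 9.76, 9.31 and 9.23 against 9.58 to 10.52. Frat2, which acts in Wnt signalling, fell by 0.81 (adjusted p = 0.00114) and Ypel3, a growth suppressor, by 0.77 (adjusted p = 0.000236). These 2 did not pass without repeat b at hours 0 to 5, where the differences were -0.45 (adjusted p = 0.0615) and -0.53 (adjusted p = 0.138). Pdcd4, an inhibitor of the initiation factor eIF4A, fell by 0.66 (SE 0.0932, adjusted p = 0.00023) at its brightest probe set and at 3 of its 4 others. Tgif1, a repressor of TGF-beta responses, fell by 0.72 (SE 0.0726, adjusted p = 3.8e-06), with pairs from -0.88 to -0.57. Atosa fell by 0.77 (adjusted p = 0.000383), but of its 2 other probe sets 1 fell by 1.04 and 1 rose by 0.26.

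**Figure D2:**
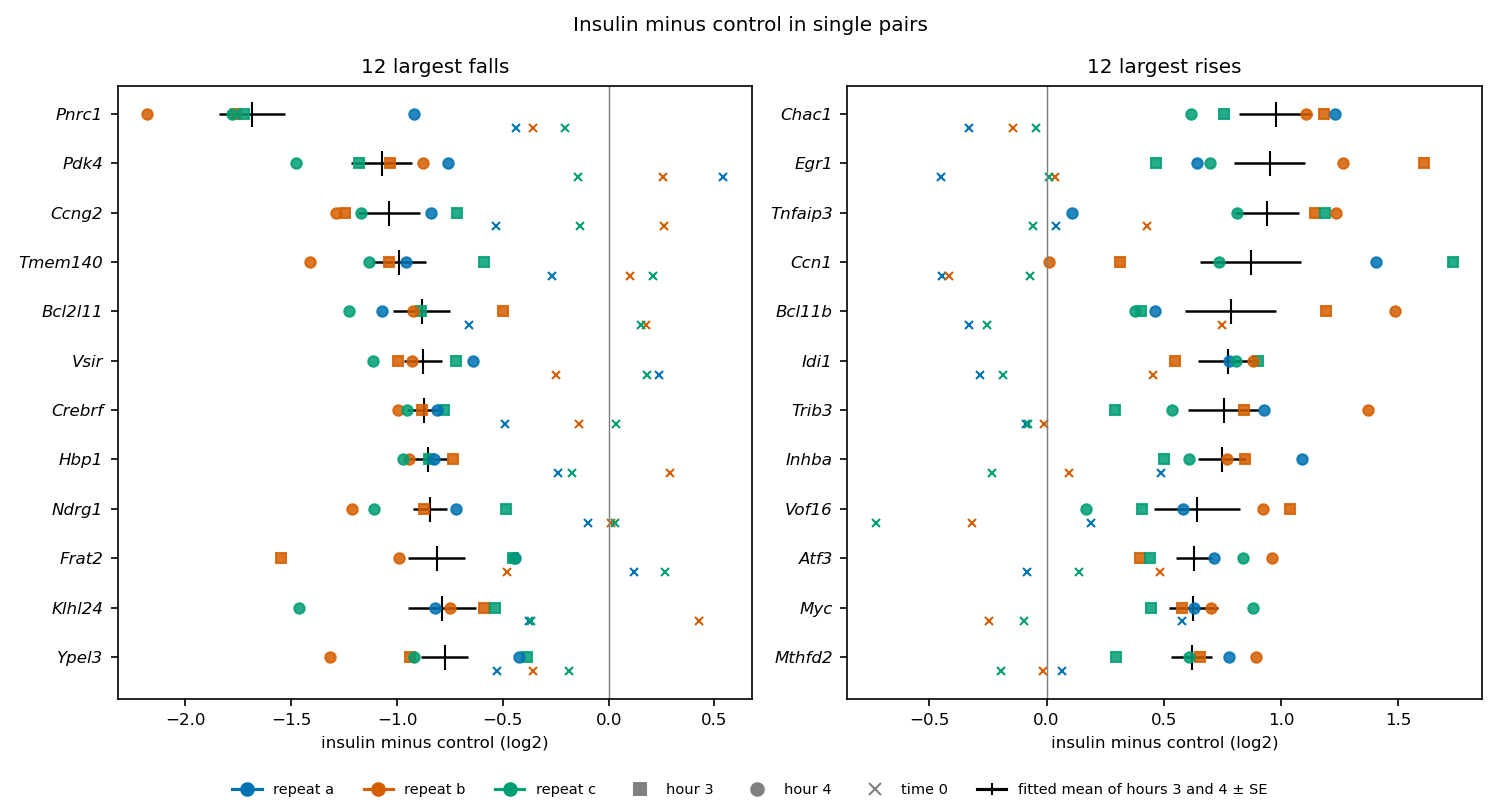
Treated minus control difference (log2, horizontal axis) in each pair at hour 3 (squares), hour 4 (circles) and time 0 (crosses) for the 12 genes with the largest falls and the 12 with the largest rises, coloured by repeat, with the fitted mean of hours 3 and 4 and its SE in black. The pairs of repeat b lay farthest out for Frat2, Egr1 and Bcl11b, and the time 0 difference of Bcl11b in repeat b was 0.75.

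Genes of autophagy and the lysosome had 9 falls and 0 rises among 35 measured (25.7% called, against 4.47% of all genes). The median was -0.13. The 9 were Ulk1, Atg13, Atg14, Gabarapl1, Sqstm1, Bnip3l, Pink1, Pik3c3 and Ctsd. Atg14 and Atg13, which act at the start of autophagosome formation, fell by 0.66 (SE 0.117, adjusted p = 0.00196) and by 0.57 (SE 0.0999, adjusted p = 0.0018). Gabarapl1, a protein of the autophagosome membrane, measured 8.04, 7.87, 8.00, 7.85 and 7.90 in treated and 8.23 to 8.64 in control arrays. The groups did not overlap, and it fell by 0.48 (adjusted p = 0.000249). When repeat b was left out, Bnip3l was the 1 member that fell (difference -0.44, adjusted p = 0.0168), and the median of the list was -0.10.

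Of 20 measured genes of sterol synthesis and uptake, 8 rose and 0 fell (40% called, against 4.47% of all genes). Of the 20, 18 lay above 0, and the median was 0.33. The 8 were Idi1, Sqle, Cyp51, Msmo1, Nsdhl, Sc5d, Dhcr7 and Insig1. The median was 0.43 without repeat b, and 3 of them rose: Idi1, Sqle and Insig1. At time 0 the median of the list was -0.10.

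Idi1, an isomerase at the start of isoprenoid synthesis, measured 10.15, 10.92, 11.10, 10.46 and 11.21 in treated arrays and 9.58 to 10.41 (median 10.17) in control arrays. The groups overlapped, since repeat b was low in both cultures, but 5 of 5 pairs rose by 0.55 to 0.90. The fitted difference was 0.77 (SE 0.129, adjusted p = 0.00127), or 1.71-fold, and a second probe set of Idi1 rose by 0.66. Sqle, which commits squalene to sterols, measured 9.90, 10.26, 10.63, 10.25 and 10.45 against 9.54 to 10.12. Its hour 3 pair in repeat b differed by -0.02 and its other 4 pairs by 0.48 to 0.73. Sqle was 1.38-fold higher (difference 0.46, SE 0.0986, adjusted p = 0.0105), and 0.67 higher without repeat b, but 0.23 without repeat c (adjusted p = 0.281).

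Insig1, which holds SREBP precursors in the endoplasmic reticulum and is itself a target, rose by 0.45 (SE 0.105, adjusted p = 0.0174), with pairs from 0.13 to 0.80. It gave 0.25 without repeat c (adjusted p = 0.25). Msmo1, a later enzyme of the pathway, rose by 0.51 (adjusted p = 0.0106), with pairs from 0.30 to 0.71. Srebf1, the gene of the factor SREBP1, did not pass (difference -0.28, SE 0.119, adjusted p = 0.169). In fatty acid synthesis, 1 of 19 measured genes rose and 1 fell (10.5% called, against 4.47% of all genes), with a median of -0.02. Fasn, the fatty acid synthase, measured 10.41, 10.62, 11.10, 10.41 and 10.68 in treated and 10.03 to 10.74 in control arrays. It rose in 5 of 5 pairs, by 0.33 (SE 0.0574, adjusted p = 0.00175), while a dimmer probe set of Fasn gave 0.05 (adjusted p = 0.866). Lpin1, a phosphatidate phosphatase, fell by 0.38 (adjusted p = 0.0119) with all arrays and gave -0.30 without repeat b (adjusted p = 0.571).

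ATF4 and its targets had 7 rises and 0 falls among 23 measured genes (30.4% called, against 4.47% of all genes). The list had a median of 0.24. The 7 were Atf4, Atf3, Ddit3, Trib3, Chac1, Mthfd2 and Cebpg. The median was 0.05 without repeat b, and Atf3 was the 1 member that passed. Chac1, an enzyme that degrades glutathione, had the largest rise of all named genes. It measured 9.12, 8.41, 9.75, 9.24 and 8.69 in treated arrays and 7.65 to 8.52 (median 8.10) in control arrays. Only the hour 3 array of repeat c reached into the control range, and 5 of 5 pairs rose by 0.62 to 1.23. Chac1 was 1.97-fold higher (difference 0.98, SE 0.157, adjusted p = 0.000844), and 0.84 higher without repeat b (adjusted p = 0.201).

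Atf3, a stress-induced factor, measured 7.58, 7.50, 7.68, 7.65 and 7.55 in treated arrays and 6.69 to 7.20 (median 7.01) in control arrays. Its groups did not overlap, and it was 1.55-fold higher (difference 0.63, SE 0.0788, adjusted p = 6.64e-05). Mthfd2, an enzyme of mitochondrial folate metabolism, measured 8.86, 8.67, 9.05, 9.09 and 8.93 against 8.19 to 8.38 (median 8.25). The groups were apart, and the difference was 0.62 (SE 0.0883, adjusted p = 0.000236), or 0.50 without repeat b (adjusted p = 0.0615). Trib3, an inhibitor of Akt and a target of ATF4, rose by 0.76 (SE 0.152, adjusted p = 0.00636) and at both of its other probe sets, by 1.11 and 1.12. Trib3 gave 0.51 without repeat b (adjusted p = 0.669). The list of aminoacyl-tRNA synthetases, many of them ATF4 targets too, had 0 rises and 1 fall among 19, Qars1 at -0.32. This share of 5.26% lay near the 4.47% of all genes. Among 15 amino acid transporters 0 rose and 2 fell (13.3% called, against 4.47% of all genes). These were Slc38a2 at -0.26 (-0.13 without repeat c) and Slc43a2 at -0.28. Slc7a1 did not pass at its brightest probe set. Of its other probe sets, that at a mean level of 9.26 rose by 0.52 (adjusted p = 0.00179) and that at 5.11 gave -0.03 (adjusted p = 0.932).

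Immediate early genes respond to growth factor signals through ERK and related kinases. They had 5 rises and 1 fall among 26 measured (23.1% called, against 4.47% of all genes), with a median of 0.13. Egr1 measured 9.74, 8.17, 9.64, 9.55 and 7.97 in treated arrays and 7.27 to 9.00 (median 8.21) in control arrays. Repeat c was low in both cultures, so that the groups overlapped, while 5 of 5 pairs rose. The difference was 0.95 (SE 0.151, adjusted p = 0.000783), or 1.94-fold, and without repeat b it was 0.57 (adjusted p = 0.294). Myc rose by 0.63 (SE 0.104, adjusted p = 0.00127), with pairs from 0.45 to 0.88, and gave 0.60 without repeat b (adjusted p = 0.0889). Ier2, Srf and Atf3 rose as well, and Jun fell by 0.45 (adjusted p = 0.0127). Another probe set of Jun fell by 0.46 (adjusted p = 0.0252), while that at a mean level of 10.1 gave -0.12 (adjusted p = 0.282). Of 16 genes of ERK feedback, Dusp6 and Spry4 rose, by 0.45 and 0.36, and 0 fell (12.5% called, against 4.47%). Of the 16, 9 lay below 0, the median was -0.05, and 0 passed without repeat b.

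Tnfaip3, an inhibitor of NF-kappaB signalling also known as A20, measured 8.13, 8.01, 8.07, 8.19 and 8.34 in treated arrays and 6.83 to 7.96 (median 7.26) in control arrays. The groups did not overlap, although its hour 4 pair of repeat a differed by 0.11 against 0.81 to 1.24 in the other 4. It was 1.92-fold higher (difference 0.94, SE 0.136, adjusted p = 0.000249). Ccn1, a matrix protein induced through YAP and SRF, measured 10.30, 10.90, 11.46, 10.27 and 11.24 against 9.17 to 10.50 (median 10.03). It rose by 0.87 (SE 0.214, adjusted p = 0.0245), and the pairs of repeat b, at 0.31 and 0.01, lay under the other 3, at 0.74 to 1.73. The difference of Ccn1 was 1.40 without repeat b (adjusted p = 0.00265), 0.51 without repeat c (adjusted p = 0.354) and 0.70 without repeat a (adjusted p = 0.0749). Inhba, a subunit of activin, rose by 0.75 (SE 0.101, adjusted p = 0.000138), while its dimmer probe set gave 0.37 (adjusted p = 0.267). Bcl11b, a zinc finger factor, rose by 0.79 (adjusted p = 0.0245), with pairs of 1.19 and 1.49 in repeat b and 0.38 to 0.46 in the others. It gave 0.41 without repeat b (adjusted p = 0.344). Vof16 rose by 0.64, with an adjusted p of 0.0497.

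Ribosome biogenesis had 10 rises and 1 fall among 55 measured genes (20% called, against 4.47% of all genes). Of the 55, 44 lay above 0, and the median was 0.12. The 10 were Gnl3, Wdr43, Utp4, Utp15, Gar1, Tsr1, Nip7, Lyar, Mphosph10 and Polr1b, and Nop10 fell. Wdr43, a factor of the small subunit processome, measured 8.97, 9.02, 8.75, 8.90 and 8.81 in treated arrays and 8.36 to 8.69 in control arrays. The groups did not overlap, and the difference was 0.37 (SE 0.0529, adjusted p = 0.000236), while its other probe set gave 0.16 (adjusted p = 0.0863). Utp15 rose by 0.50 (adjusted p = 0.00464) and Gnl3, a nucleolar GTPase, by 0.32 (adjusted p = 0.00175). None of its 55 genes passed without repeat b, where the median was 0.14.

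Of 29 genes of RNA polymerases I and III, 5 rose and 1 fell (20.7% called, against 4.47% of all genes). Their median was 0.08. Polr1f, a subunit of polymerase I, rose by 0.36 (adjusted p = 0.00258) and Taf1d, of its initiation factor, by 0.53 (adjusted p = 0.0224). The gene that fell was Maf1, a repressor of polymerase III, with a difference of -0.45 (SE 0.0644, adjusted p = 0.000236). Maf1 gave -0.40 without repeat b (adjusted p = 0.0889) and -0.29 relative to time 0. None of these 29 genes passed without repeat b, where the median was 0.12. Among 29 cap-binding and initiation factors, 3 rose and 2 fell (17.2% called, against 4.47%), with a median of -0.0073. Eif4e, the cap-binding protein, rose by 0.18 (adjusted p = 0.0303) and Eif2s2 by 0.27 (adjusted p = 0.0158). Eif4e gave 0.14 without repeat b (adjusted p = 0.775), and its dimmer probe sets gave 0.16 and -0.01 without passing. Eif2s2 was higher by 0.14, 0.24 and 0.09 at time 0, and its difference relative to time 0 was 0.11. The 2 falls were Pdcd4 and Mknk2, a kinase of eIF4E. Mknk2 fell by 0.68 (adjusted p = 0.0278), but it differed by -0.86 at time 0 in repeat b, and without that repeat its difference was -0.40 (adjusted p = 0.714).

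**Figure D3:**
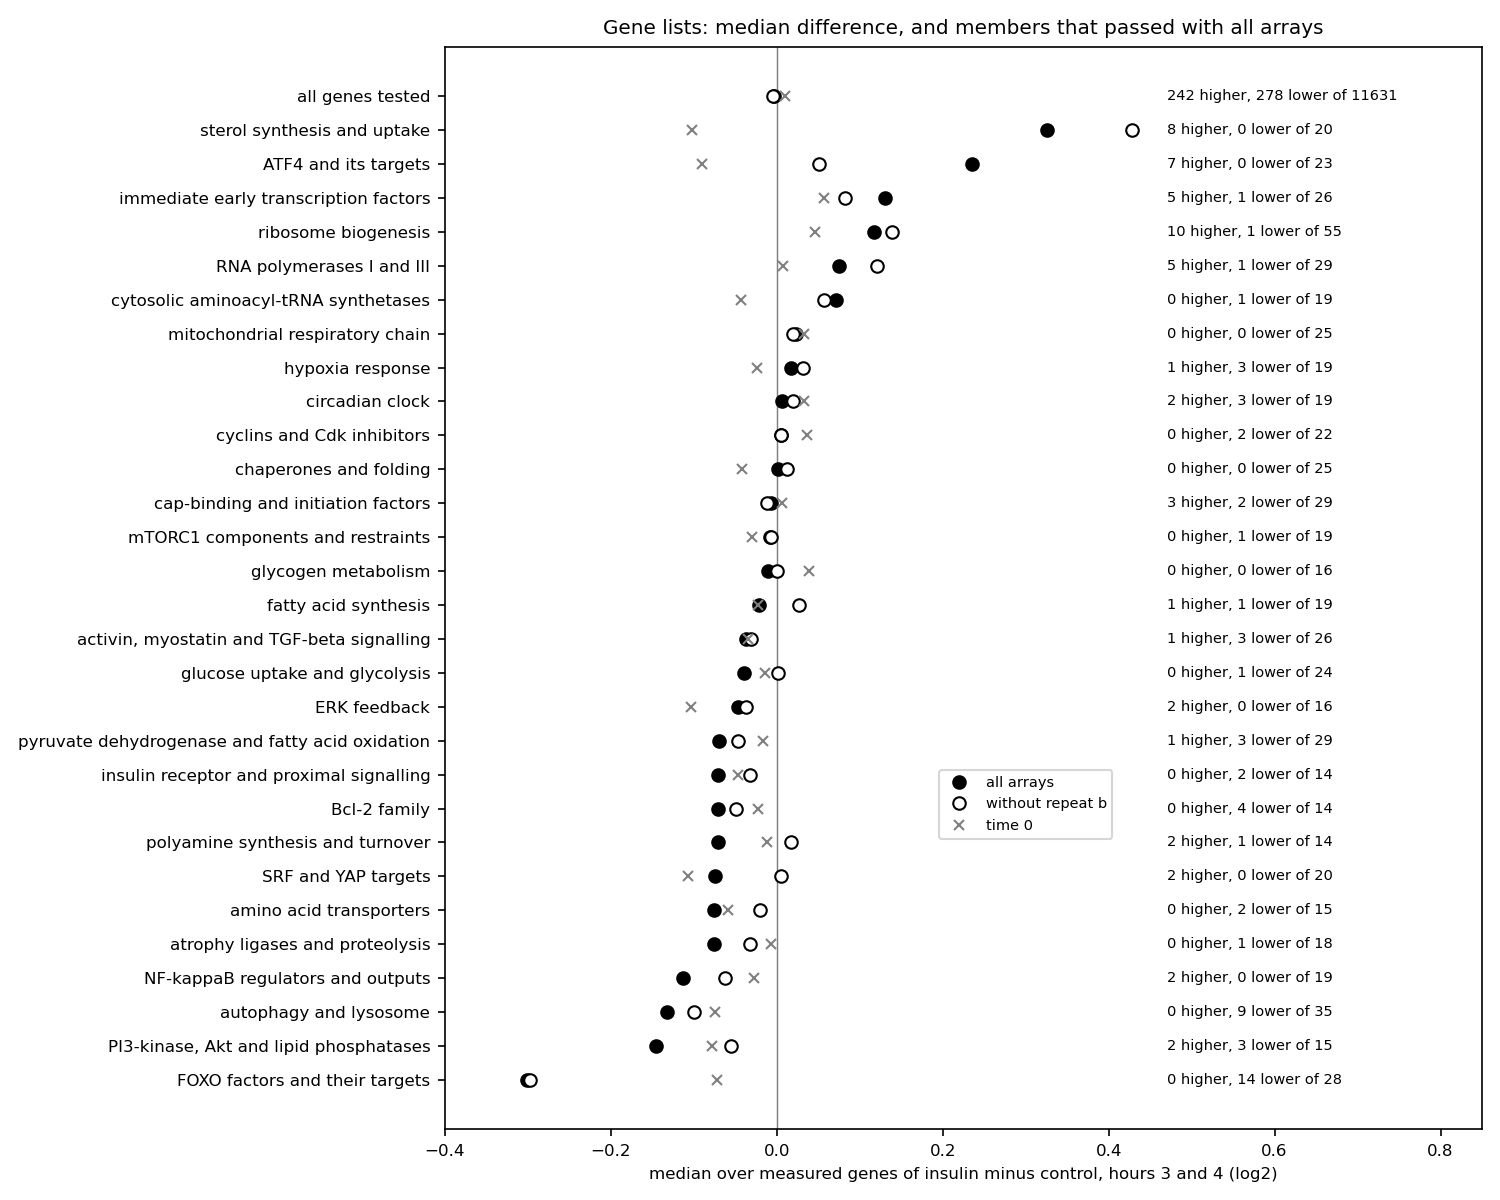
Median treated minus control difference (log2, horizontal axis) over the measured genes of 29 lists and over all genes tested, for hours 3 and 4 with all arrays (filled), without repeat b at hours 0 to 5 (open) and at time 0 (crosses), with the number of members that rose and fell printed at the right. The FOXO list was the lowest at -0.30 and the sterol list the highest at 0.33 with all arrays, and the ATF4 list moved from 0.24 to 0.05 without repeat b.

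In the signalling chain itself, 0 of 14 genes of the insulin receptor and its proximal partners rose and 2 fell (14.3% called, against 4.47% of all genes), Irs2 and Gab1 (difference -0.26, adjusted p = 0.0362). Insr gave -0.07 (SE 0.0937, adjusted p = 0.712) and Irs1 -0.06 (SE 0.117, adjusted p = 0.808). Of 15 genes of PI3-kinase, Akt and lipid phosphatases, 33.3% were called, against 4.47% of all genes. Pdpk1 and Trib3 rose, and Pik3ca (difference -0.36), Pik3c3 (difference -0.27) and Pik3ip1 fell. Among the other probe sets of Pik3ca, those at mean levels of 9.26 and 7.97 fell, by 0.33 and 0.39. Those at 9.20, 8.38 and 5.93 gave -0.02, -0.12 and 0.12 without passing. Akt2 gave -0.26 (adjusted p = 0.25), with -0.55 in both pairs of repeat b and -0.06 to -0.04 in the other 3. Pik3r1, the regulatory subunit p85, gave 0.11 (adjusted p = 0.425).

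In glucose uptake and glycolysis, 0 of 24 measured genes rose and 1 fell, Txnip (4.17% called, near the 4.47% of all genes). Slc2a4, the gene of the insulin-regulated transporter GLUT4, measured 8.04, 7.91, 8.07, 8.03 and 7.96 in treated arrays and 8.09 to 8.28 (median 8.18) in control arrays. The groups did not overlap, yet the difference of -0.21 (SE 0.0739, adjusted p = 0.113) did not pass, and a second probe set gave -0.40 (adjusted p = 0.0639). Slc2a1, the transporter GLUT1, gave 0.06 (SE 0.0879, adjusted p = 0.741), and Hk2, a hexokinase, -0.0069 (SE 0.159, adjusted p = 0.985). Among 16 genes of glycogen metabolism 0 passed, and Gys1, the muscle glycogen synthase, gave -0.06 (SE 0.104, adjusted p = 0.777). Among 29 genes of pyruvate dehydrogenase and fatty acid oxidation, 13.8% were called, against 4.47% of all genes. Pdk4, Pdk2 and Acadl fell and Pdp2, a phosphatase that activates pyruvate dehydrogenase, rose by 0.35 (adjusted p = 0.00425). The respiratory chain had 0 of 25 genes that passed and the chaperones 0 of 25.

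At the single hours fewer genes passed, since hour 3 rests on 2 pairs and hour 4 on 3. At hour 3, 4 genes rose (0.0344%) and 14 fell (0.12%), 0.155% of the genes tested, and 0.131% of the probe sets passed. The 4 rises at hour 3 were Amotl2, Clk4, Tnfaip3 and Zbtb11. At hour 4, 60 rose (0.516%) and 97 fell (0.834%), 1.35% of the genes tested, and 1.1% of the probe sets passed. Pnrc1 differed by -1.74 at hour 3 and by -1.63 at hour 4, and Pdk4 by -1.11 and -1.04. The change from hour 3 to hour 4 passed for 0 probe sets (0%) by limma, with 469 of 22143 under an unadjusted p of 0.05 and 1 passing where no floor was set.

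The differences at hours 3 and 4 were set against those of the earlier and the later hours. Against hours 1 and 2, 8 genes passed (0.0688% of the genes tested, and 0.0406% of the probe sets). Mthfd2 was the 1 gene whose difference was higher (0.0086%), and the 7 lower ones (0.0602%) were Atosa, Crebrf, Fbxl20, Hbp1, Ndrg1, Pdcd4 and Vsir. Mthfd2 differed by -0.17 and -0.10 at hours 1 and 2, and by 0.47 and 0.76 at hours 3 and 4, a change of 0.75 (SE 0.119, adjusted p = 0.0124). Hbp1 went from 0.11 and -0.33 to -0.79 and -0.91 (change -0.75, SE 0.119, adjusted p = 0.0124). Pdcd4 went from 0.11 and -0.07 to -0.43 and -0.88 (change -0.68, SE 0.125, adjusted p = 0.0445). When repeat b was left out, 0 probe sets passed in this comparison. For Atosa the change was -0.84, for Vsir -0.66, for Crebrf -0.65 and for Ndrg1 -0.64.

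Against hours 5 to 8, 23 genes passed (0.198% of the genes tested, and 0.126% of the probe sets), 10 with a higher (0.086%) and 13 with a lower (0.112%) difference at hours 3 and 4. Among the 15 amino acid transporters, 2 had a lower difference and 0 a higher one. Slc7a5, the large neutral amino acid transporter, differed by -0.37 and -0.08 at hours 3 and 4 and by 0.33, 0.66, 0.83 and 0.82 at hours 5 to 8, a change of -0.88 (SE 0.12, adjusted p = 0.0043). Its difference at time 0 was -1.03, -0.50 and -0.59 in repeats a, b and c, measured on plates of their own. Slc7a1, a cationic amino acid transporter, went from 0.08 and 0.44 at hours 3 and 4 to 0.84, 0.97, 0.84 and 0.92 (change -0.63, SE 0.105, adjusted p = 0.02). The cell cycle factor E2f2 (change -0.73), the tyrosyl-tRNA synthetase Yars1 (change -0.55) and Ccdc86 (change -0.56) were also lower at hours 3 and 4 than later.

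Genes whose difference was higher at hours 3 and 4 than at hours 5 to 8 included Tcp11l2 (change 0.80) and Ccpg1 (change 0.68). Ccpg1, a receptor for autophagy of the endoplasmic reticulum, gave 0.03 and -0.17 at hours 3 and 4, and then -0.55, -0.71, -0.83 and -0.92 (adjusted p = 0.0103). Arl6ip5, a protein of the endoplasmic reticulum, gave 0.33 and 0.45 at hours 3 and 4 and lay between -0.26 and -0.13 later (change 0.60, SE 0.122, adjusted p = 0.0467). Its hour 4 pairs were -0.11, 0.42 and 1.03 in repeats a, b and c, and the control array of the last stood at 10.92 against 11.74 to 12.28 in the other 5. Without repeat c its difference over hours 3 and 4 was 0.24 (adjusted p = 0.252). Trim34 (change 0.81) gave 0.66 at hour 3 and 0.03 at hour 4, where its pairs ran from -0.40 to 0.46. LOC100909928 changed by 0.55. This comparison too had 0 probe sets that passed without repeat b.

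**Figure D4:**
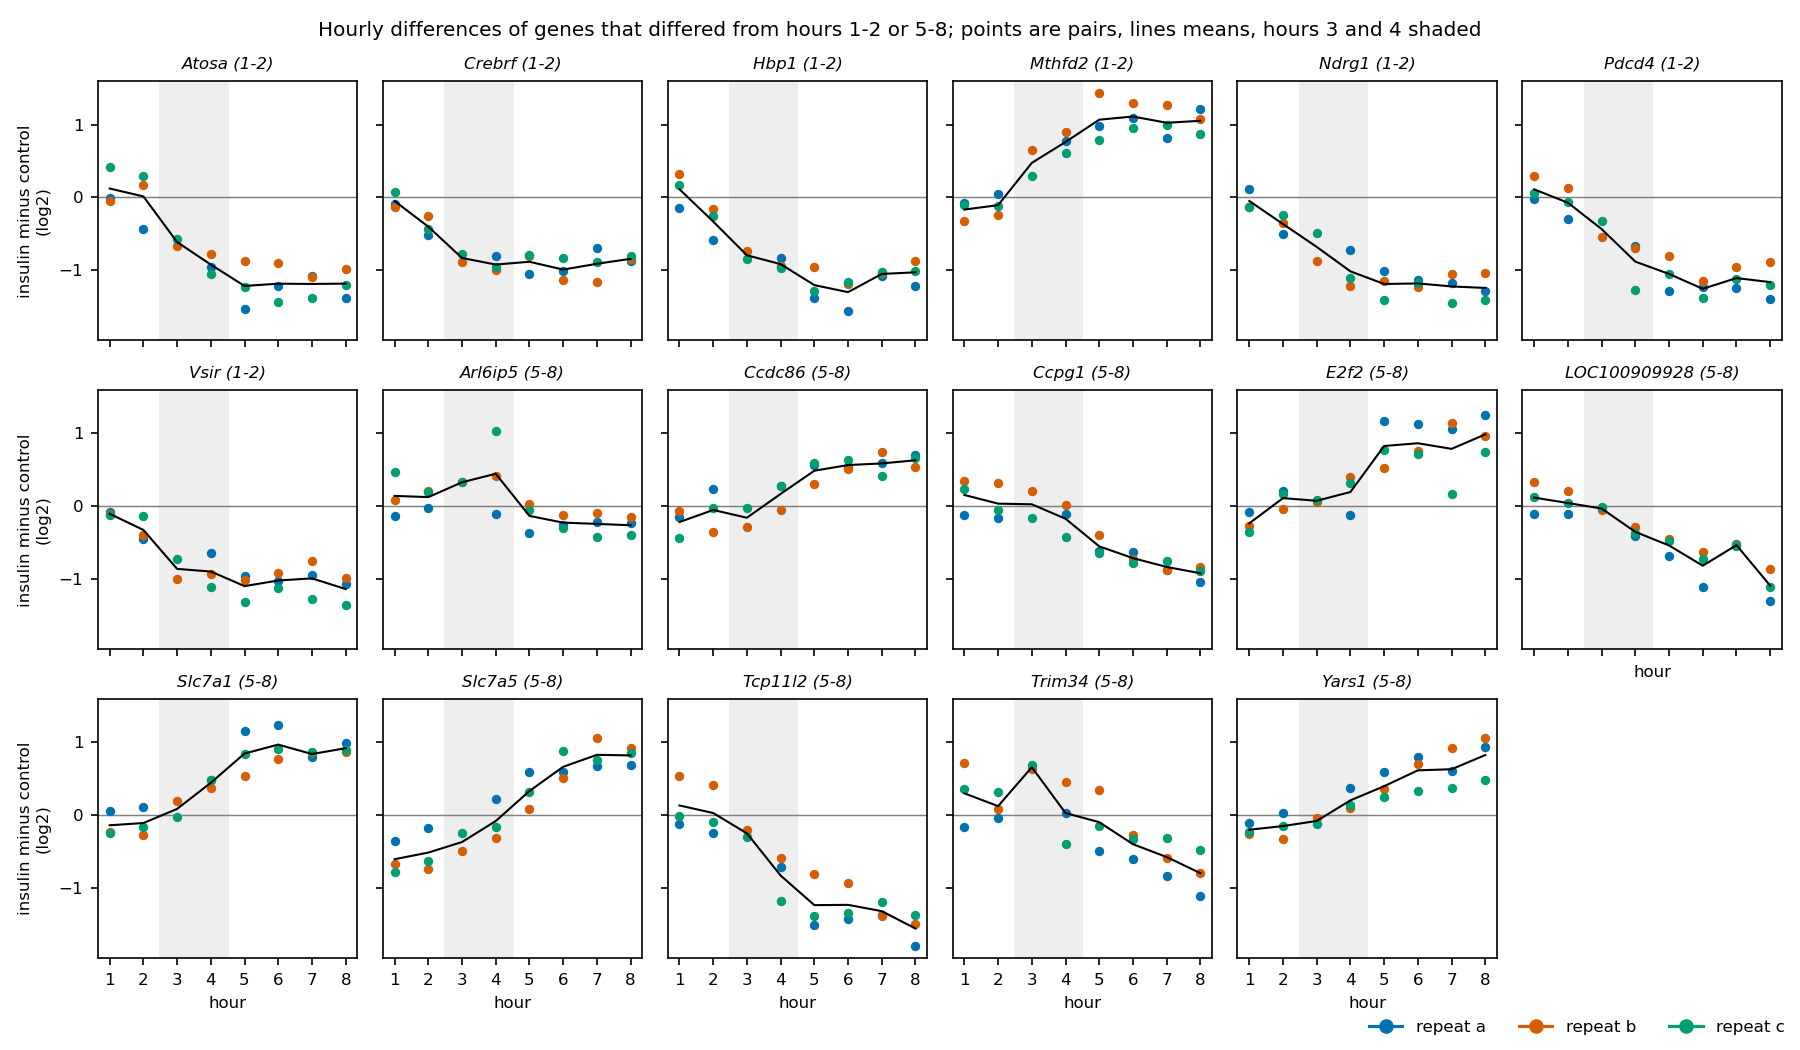
Treated minus control difference (log2, vertical axis) at hours 1 to 8 for 7 genes that differed from hours 1 and 2 and 10 that differed from hours 5 to 8, as named in each title; points are pairs coloured by repeat, lines are means, and hours 3 and 4 are shaded. Mthfd2 went from -0.17 at hour 1 to 0.76 at hour 4, and Slc7a5 and Slc7a1 lay lower at hours 3 and 4 than at every later hour.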

How the data were processed

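RNA of L6 cultures was measured on Affymetrix rat arrays. Per the submitters' notes and the methods of the study, the authors subtracted background, applied quantile normalisation and summarised probes with RMA (version not given in the sources used here), so that deposited values are log2 levels. They cover 31099 probe sets, 57 of them controls of the manufacturer. Medians of the arrays were 6.30 to 6.37. Precision is limited by how many arrays there are. The 22143 probe sets with a mean level of at least 5 were tested. In the platform annotation 20832 probe sets carry 1 symbol, 436 several and 9831 none, and each gene was taken at its brightest tested probe set.

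Groups, hours and repeats came from the titles. With limma 3.58.1 in R 4.3.3, a fixed block for each hour and repeat and 1 treated minus control coefficient per hour were fitted to all 53 arrays (eBayes with trend, two-sided, Benjamini-Hochberg over the tested probe sets), after a check on simulated data. The control array of hour 3 in repeat a has no partner and adds nothing to a difference. Repeats are separate cultures of 1 line on different days, and in 26 pairs the arrays deviated together from their group means at 0.206 to 0.787, so they were taken as paired. Alternatives were no block, the arrays of hours 3 and 4 alone, the repeat as a random block, 1 value per repeat, values relative to time 0, omission of repeat b at hours 0 to 5, other filters, centring, robust variances and omission of each repeat.

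Genes were named by a rule: the 12 largest rises and falls among called genes with 1 sign in 5 pairs, up to 4 called members of each list, a fixed set of genes of insulin action, and up to 5 genes each way for the change between hours. Members of the lists named only to complete a count, Fbxl20, Clk4, Slc25a33, LOC100912041, Zbtb11 and Slc35a2 were added after their values were seen. A gene of the fixed set is not reported here. The members, lists and tests were chosen with earlier results of these data known. Promoter sequences are RefSeq's.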

Additional observations from a re-analysis of the deposited data

Results flagged for a closer look

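The treated minus control difference at hours 3 and 4 differed from that at hours 1 and 2 by a test of the difference for Atosa (change -0.84), Hbp1 (-0.75), Pdcd4 (-0.68), Vsir (-0.66), Crebrf (-0.65), Ndrg1 (-0.64) and Mthfd2 (0.75). It differed from that at hours 5 to 8 by the same kind of test for Slc7a5 (change -0.88), E2f2 (-0.73), Slc7a1 (-0.63), Ccdc86 (-0.56) and Yars1 (-0.55), and for Trim34 (0.81), Tcp11l2 (0.80), Ccpg1 (0.68), Arl6ip5 (0.60) and LOC100909928 (0.55). Without repeat b at hours 0 to 5, 0 probe sets passed in either comparison. Of the 5 pair differences at hours 3 and 4, 1 lay far from the other 4 in Fasn, where the hour 3 pair of repeat b was lowest at 0.17, and in Spry4, where the same pair was highest at 0.64. Chance alone would set a value apart like this in about 1 of 20 genes. What sets these pairs apart was not tested.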

How the results depend on the processing

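With all arrays, 397 probe sets were higher and 443 lower over hours 3 and 4. Without the pairing of arrays (no replicate block) these were 22 and 50, with 1 value per repeat 31 and 39, relative to time 0 1 and 11, and without repeat b at hours 0 to 5 16 and 37. Leaving out each repeat gave 3 to 825 higher and 16 to 857 lower, lowest without repeat b (3 and 16) and highest without repeat a (825 and 857), with 15 and 38 without repeat c. The 6 other alternatives stayed within 1.5 times, and centring each array moved the split to 533 higher and 416 lower. Hour 3 alone had 29, against 0 without the pairing, with the arrays of hours 3 and 4 only, relative to time 0 and without repeat b at hours 0 to 5, 17 with no filter, 1020 with 1 value per repeat and 0 to 35 with each repeat left out. Hour 4 alone had 243, against 11 without the pairing, 127 with the arrays of these hours only, 87 with 1 value per repeat, 10 relative to time 0, 44 without repeat b at hours 0 to 5 and 1 to 218 with each repeat left out. The change from hour 3 to 4 had 0, against 68 with 1 value per repeat and 1 with no filter. Against hours 1 and 2 there were 9, against 0 without the pairing or without repeat b at hours 0 to 5, 15 with the repeat as a random block and 0 to 8 with each repeat left out. Against hours 5 to 8 there were 28, against 0 without the pairing, with 1 value per repeat or without repeat b at hours 0 to 5, 187 with the random block, 10 with no filter, 48 with only the brighter probe sets, 54 after centring and 0 to 2 with each repeat left out. The causes were not tested.

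Of the 85 called genes named, 22 also passed without the pairing, 26 with 1 value per repeat, 6 relative to time 0 and 24 without repeat b at hours 0 to 5, and 81, 11 and 20 passed without repeat a, b or c at every hour. Relative to time 0, 17 of the 85 moved by over 1.5 times, 16 of them to a smaller difference, such as Mul1 (-0.16), Oaz2 (-0.17), Amd1 (0.10), Ypel3 (-0.42) and Cry1 (0.30). None of the 85 changed sign in any alternative. Among named genes that were not called, signs changed relative to time 0 for Insr (0.0196), Irs1 (0.14), Hk2 (0.17), Slc2a1 (-0.0708) and Slc7a5 (0.48), with 1 value per repeat for Irs1 (0.0546) and Hk2 (0.0217), and without repeat b at hours 0 to 5 for Ddit4 (-0.0064), Gys1 (0.12) and Hk2 (0.0303). Hk2 also changed sign with the random block (0.0043) and after centring (0.0068). With each repeat left out, differences ran from -0.0853 to 0.127 for Ccdc86, -0.212 to 0.0831 for Ccpg1, -0.0064 to 0.65 for Ddit4, -0.0909 to 0.0097 for Foxo1, -0.21 to 0.12 for Gys1, -0.0515 to 0.0303 for Hk2, -0.17 to 0.13 for Irs1 and -0.0338 to 0.0893 for Odc1. Of all 520 called genes, 405 had a smaller difference relative to time 0, and Slc35a2 changed sign. Dim genes near the floor and the 2 pairs of hour 3 limit what can be seen.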

Other observations

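Some other lists held calls in both directions. Among 19 measured genes of the circadian clock, 26.3% were called, against 4.47% of all genes. Cry1 (difference 0.52, adjusted p = 0.0167) and Bhlhe41 (difference 0.31, adjusted p = 0.0263) rose, and Nr1d1, Nr1d2 and Dbp fell. Nr1d1, a repressor of Bmal1 and of other clock genes, measured 7.42, 7.43, 7.30, 6.98 and 7.04 in treated arrays (same order as before) and 7.48 to 8.51 in control arrays. The groups did not overlap, and the limma difference was -0.75 (SE 0.146, adjusted p = 0.00459). It gave -0.63 without repeat b at hours 0 to 5 (adjusted p = 0.448), where 0 clock genes passed. Among 19 genes of the hypoxia response, Hif1a rose by 0.25, and Ndrg1, Mxi1 and Kdm3a fell (21.1% called, against 4.47%). Mxi1, an antagonist of Myc, measured 9.24, 9.24, 9.46, 9.14 and 9.21 against 9.63 to 10.07 and fell by 0.56 (adjusted p = 0.000132).

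Of 14 polyamine genes, 21.4% were called, against 4.47% of all genes. Amd1, which makes the aminopropyl donor, and Mat2a rose, by 0.39 (pairs 0.32 to 0.45) and by 0.35, and Oaz2, an antizyme, fell by 0.33. Amd1 already differed by 0.53, 0.32 and 0.01 at time 0 in repeats a, b and c, and 0 of these 14 genes passed without repeat b. Odc1, the enzyme that starts polyamine synthesis, gave 0.03 (SE 0.0426, adjusted p = 0.687). In activin, myostatin and TGF-beta signalling, Inhba rose and Acvr2b, Smad3 and Tgif1 fell among 26 genes (15.4% called, against 4.47%). Of these 4, Tgif1 also passed without repeat b. Of 19 NF-kappaB genes, Tnfaip3 and Chuk rose and 0 fell (10.5% called, against 4.47% of all genes). Of the 19, 14 lay below 0, and the median was -0.11. Chuk did not pass without repeat b (difference 0.19, adjusted p = 0.553). Of 20 SRF and YAP targets, Ccn1 and Amotl2 rose and 0 fell (10% called, against 4.47% of all genes). Of the 20, 11 lay below 0, and the median was -0.07. Of 22 cyclins and Cdk inhibitors, Ccng2 and Cdkn1b fell and 0 rose (9.09% called, against 4.47%). Of 19 mTORC1 genes Sesn1 fell (5.26% called), and of 18 atrophy ligases and proteolysis genes Mul1 fell (5.56% called). Both shares lay near the 4.47% of all genes. Ddit4, an inhibitor of mTORC1, gave 0.88 and 0.75 in the pairs of repeat b and -0.05 to 0.10 in the other 3, with an adjusted p of 0.135.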
